A study of Mus musculus with 14 samples.

Results

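The transcripts of the Pim kinase genes were followed in murine bone marrow erythroid progenitors with and without erythropoietin (EPO). They were chosen as every probe set (a group of short array probes read out as 1 value) that the platform annotation gives to Pim1, Pim2 or Pim3 alone. This gave 6 of the 45037 probe sets tested, with 2 for Pim1, 1 for Pim2 and 3 for Pim3, and no probe set named a Pim gene together with another gene. Marrow came from wild-type C57Bl/6 female mice of 8 to 12 weeks and was expanded in a medium that held EPO and stem cell factor. The 4 groups were EPO-challenged stage E2 cells, unchallenged stage E2 cells, EPO-challenged stage E1 cells and unchallenged stage E1 cells. Stage E2 cells were taken at day 3.5 after depletion of lineage-positive and Kit-positive cells and selection for CD71. Stage E1 cells, the CFU-e-like progenitors, were taken at day 3 after lineage depletion as cells positive for both Kit and CD71, and the paper describes the harvest of both stages on the later day. All cells were then held for 5.5 h without hematopoietic cytokines, and were exposed for 90 min to EPO at 4 U/mL or to none. Stage E2 had 3 arrays with EPO and 3 without, and stage E1 had 4 of each, described as biological replicates. Stage was therefore joined to the Kit selection and to the culture day, and these cannot be told apart.

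Pim kinases are serine/threonine kinases that lack a regulatory domain and are active once translated. Their output is therefore set largely by transcription and by the lifetime of mRNA and protein. EPO binding to its receptor activates the kinase JAK2 and then the transcription factor STAT5, and Pim1 is a classical STAT5 target in blood cells. Among known Pim substrates are the BH3-only protein BAD, the cell cycle inhibitors p21 and p27, and regulators of translation that are shared with AKT and mTOR.

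The promoter windows are shown as a description of the 3 genes, and their part in the EPO responses was not tested. They are RefSeq sequence of build GRCm38.p6, and each is the 250 bases just before the first transcript start listed for the gene, all on the plus strand. Capitals mark the GC box GGGCGG, which binds SP1-type factors, and the CCAAT box CCAAT, which binds NF-Y, on either strand.
Pim1, chr17:29490535-29490784: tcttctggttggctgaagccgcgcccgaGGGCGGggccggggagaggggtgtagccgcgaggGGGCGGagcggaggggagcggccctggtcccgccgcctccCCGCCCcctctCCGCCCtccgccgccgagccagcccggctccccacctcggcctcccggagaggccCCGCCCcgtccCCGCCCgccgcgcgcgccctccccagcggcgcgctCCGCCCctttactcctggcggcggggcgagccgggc
Pim2, chrX:7878056-7878305: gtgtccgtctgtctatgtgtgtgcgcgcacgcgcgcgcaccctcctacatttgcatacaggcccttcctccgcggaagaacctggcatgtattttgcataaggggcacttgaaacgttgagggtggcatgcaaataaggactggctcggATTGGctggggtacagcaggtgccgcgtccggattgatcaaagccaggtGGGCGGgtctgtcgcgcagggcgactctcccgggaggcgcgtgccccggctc
Pim3, chr15:88861944-88862193: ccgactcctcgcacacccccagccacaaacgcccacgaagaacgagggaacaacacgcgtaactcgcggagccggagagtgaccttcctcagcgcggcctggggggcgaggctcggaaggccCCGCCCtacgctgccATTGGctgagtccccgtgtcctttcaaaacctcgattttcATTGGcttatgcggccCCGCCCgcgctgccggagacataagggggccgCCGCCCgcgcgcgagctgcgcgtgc

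The windows differed in base composition and in these elements. The Pim1 window held 82.4% G and C, more than 99.4% of the 32851 windows of the same length, whose median was 52.4%. The Pim3 window held 68% and the Pim2 window 62%. GC boxes numbered 7 in Pim1, 3 in Pim3 and 1 in Pim2, and 32.7% of all windows held at least 1. CCAAT boxes numbered 2 in Pim3 and 1 in Pim2, with none in the Pim1 window, against 33.8% of all windows with at least 1. The STAT motif TTCNNNGAA, found in 7.02% of windows, was in none of the 3. Nor was the GATA motif AGATAA (9.99% of windows) or the ETS motif CCGGAAG (6.91%). A further Pim1 transcript start, 2300 bases downstream of the other, was preceded by an E-box CACGTG that began 58 bases before it, an element found in 6.02% of windows. Such matches describe letters in a short window, and their absence says nothing of sites elsewhere in the genes.

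Values below are GC-RMA expression values on a log2 scale, with 1 constant subtracted for each probe set. A value of 0 is therefore a reference point of the probe set. It is not an absence of RNA and need not be the middle of these arrays. Differences between arrays can be read, and levels of different genes cannot be set against each other. Arrays of 1 group correlated over all probe sets at r = 0.72 to 0.82 in stage E2 and 0.77 to 0.91 in stage E1, and array medians lay between -0.023 and 0.031. The spread of values over all probe sets was larger in stage E1 (SD 0.63 to 0.74 per array) than in stage E2 (0.26 to 0.29). In bulk RNA, fewer cells of a type and less RNA per cell cannot be told apart.

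Pim1 rose with EPO in both stages by its probe set 1435458_at, which had the larger spread of the 2. Its values were 0.69, 0.85 and 0.81 in EPO-challenged stage E2 cells, against -0.08, -0.25 and -0.18 in unchallenged stage E2 cells. In stage E1 they were -0.73, 0.05, -0.16 and -0.05 with EPO, against -3.09, -4.15, -3.33 and -3.27 without it. EPO-challenged and unchallenged arrays did not overlap in either stage, and unchallenged stage E1 cells stood apart below all others. The rise was 1.93-fold in stage E2 (log2 change 0.95, SE 0.06, limma adjusted p = 0.0049). In stage E1 it reached 9.41-fold, at a log2 change of 3.23 with an SE of 0.27 (limma adjusted p = 0.0048). With the replicate number as a block, which the stage E1 arrays support only in part as a pairing, the limma adjusted p was 0.0988 in stage E1. In stage E2 a fit on all 14 arrays gave a limma adjusted p of 0.108. Quantile normalization, which gives all arrays the same spread of values, brought the 2 rises closer, at 1.62 in stage E2 and 2.28 in stage E1, both past the test. The values were centred before this step, so the spread of an array can also hold real differences from the constant. The step may shrink or stretch such differences, here and below.

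The other Pim1 probe set, 1423006_at, had the same direction but did not pass the test. It gave -0.14, 0.06 and 0.01 in stage E2 with EPO, against -0.70, -0.73 and -1.23 without it. In stage E1 it gave -0.02, 0.06, -0.01 and 0.42 with EPO, against -3.76, -1.01, -3.95 and -2.80 without it. The groups again did not overlap, and the unchallenged stage E1 arrays ran widely, with replicate 2 the highest. The log2 change was 0.86 in stage E2 (SE 0.17, limma adjusted p = 0.0682) and 2.99 in stage E1 (SE 0.64, limma adjusted p = 0.115). Without unchallenged stage E1 replicate 2 the change was 3.62 (limma adjusted p = 0.0141). Without unchallenged stage E2 replicate 3 the limma adjusted p in stage E2 was 0.0405. With quantile normalization the changes were 2.01 in stage E2 (limma adjusted p = 0.0714) and 2.13 in stage E1 (limma adjusted p = 0.138).

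Pim3 likewise rose in both stages by the probe set 1437100_x_at, of a class (x_at) whose probes may also bind related sequences. Its values were 0.11, 0.40 and 0.23 in stage E2 with EPO, against -0.77, -0.61 and -0.99 without it. In stage E1 they were 1.99, 1.52, 1.63 and 1.76 with EPO, against -0.61, -0.48, -0.41 and 0.06 without it. EPO-challenged stage E1 cells were the highest group, above every other array. The rise was 2.05-fold in stage E2 (log2 change 1.03, SE 0.13, limma adjusted p = 0.0229) and 4.24-fold in stage E1 (log2 change 2.08, SE 0.17, limma adjusted p = 0.0043). The stage E2 call was lost when any 1 of the 6 arrays was left out (limma adjusted p 0.0515 to 0.0800). The replicate block gave 0.0693 in stage E1. With quantile normalization the rise was 2.28 in stage E2 and 1.51 in stage E1, so that the order of the stages turned round.

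A second Pim3 probe set, 1451069_at, had the same pattern of values. They were 0.54, 0.58 and 1.16 in stage E2 with EPO, against -0.23, -0.13 and -0.02 without it, and 0.87, 1.43, 0.85 and 2.10 in stage E1 with EPO, against -0.21, -0.25, -0.38 and -0.44 without it. No array overlapped between treatments. The log2 change was 0.88 in stage E2 (SE 0.19, limma adjusted p = 0.0898) and 1.63 in stage E1 (SE 0.28, limma adjusted p = 0.0563), neither past the test. Without the highest array of each stage, EPO-challenged replicate 3 in stage E2 and replicate 4 in stage E1, the limma adjusted p was 0.0407 and 0.0341, with a change of 1.37 in stage E1.

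The third Pim3 probe set, 1438956_x_at, hardly varied. Its values lay between -0.12 and -0.03 in stage E2 with EPO, against -0.40 to -0.12 without it, and between -0.01 and 0.06 in stage E1 with EPO, against -0.02 to 0.18 without it. The log2 change was 0.17 in stage E2 (limma adjusted p = 0.410) and -0.05 in stage E1 (95% interval -0.16 to 0.06, limma adjusted p = 1.0). It thus did not share the changes of the other 2 probe sets of the gene.

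Pim2 did not pass the test with EPO in either stage, and its differences had opposite signs. Its single probe set 1417216_at gave 0.40, 0.42 and 0.43 in stage E2 with EPO, against -0.74, 0.05 and -0.46 without it. In stage E1 it gave -1.96, -1.98, -0.84 and -1.14 with EPO, against -1.29, -0.62, -1.27 and -0.05 without it. The groups did not overlap in stage E2 but did in stage E1, and the EPO-challenged stage E2 arrays lay close together. The log2 change was 0.80 in stage E2 (SE 0.21, limma adjusted p = 0.140) and -0.67 in stage E1 (SE 0.39, limma adjusted p = 0.842). The 95% interval in stage E1 ran from -1.60 to 0.25. Leaving out unchallenged stage E2 replicate 2, the highest of its group, gave 1.02 (limma adjusted p = 0.0380). Leaving out the other arrays of the stage in turn gave 0.62 to 0.81, none past the test, and quantile normalization gave 1.63 (limma adjusted p = 0.238). In stage E1 the change ran from -0.88 to -0.42 without single arrays, the smallest without unchallenged replicate 4.

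**Figure D1:**
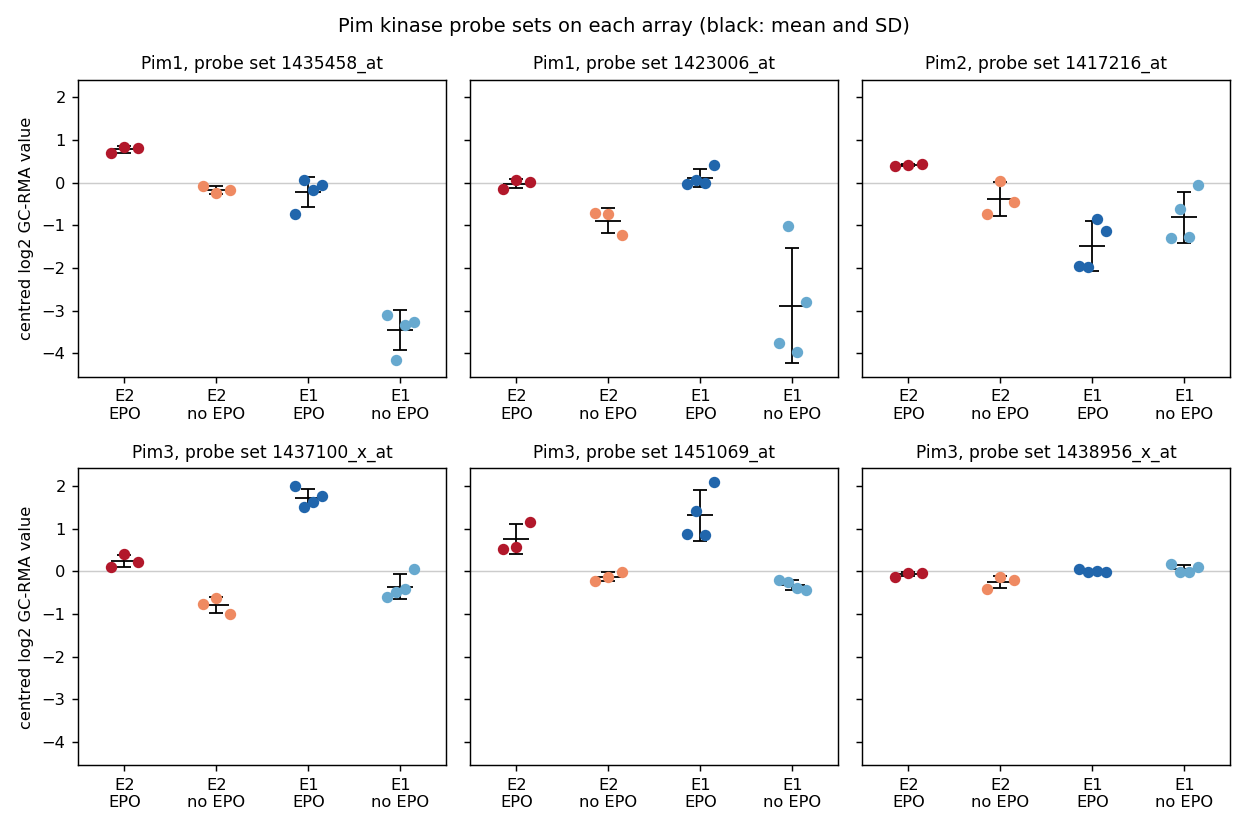
Centred log2 GC-RMA value (vertical axis) of each Pim probe set on every array, by group, with 3 arrays per stage E2 group and 4 per stage E1 group; black marks give the mean and SD. Unchallenged stage E1 cells are lowest for Pim1, EPO-challenged stage E1 cells are highest for 1437100_x_at of Pim3, and EPO-challenged stage E2 cells are highest for Pim2.

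Counted over the probe sets, 2 of 6 passed the test as higher with EPO in stage E2 and 2 of 6 in stage E1, the same ones (1435458_at and 1437100_x_at), and 0 passed as lower. Of all probe sets, 2.54% were called higher in stage E2 and 0.804% in stage E1, and 2.08% and 0.36% were called lower. Groups did not overlap, with EPO higher, for 6 of 6 Pim probe sets in stage E2 (for 1438956_x_at the groups nearly touched) and for 4 of 6 in stage E1, against 9.42% and 3.28% of all probe sets. The median log2 change of the 6 was 0.87 in stage E2 and 1.86 in stage E1, and that of all probe sets was -0.0049 and -0.0047. Exact two-sided permutation tests over arrays gave p = 0.0286 for the 4 probe sets without overlap in stage E1. This is the smallest value that 4 against 4 arrays allow, and for stage E2 the smallest is 0.1, reached by all 6.

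**Figure D2:**
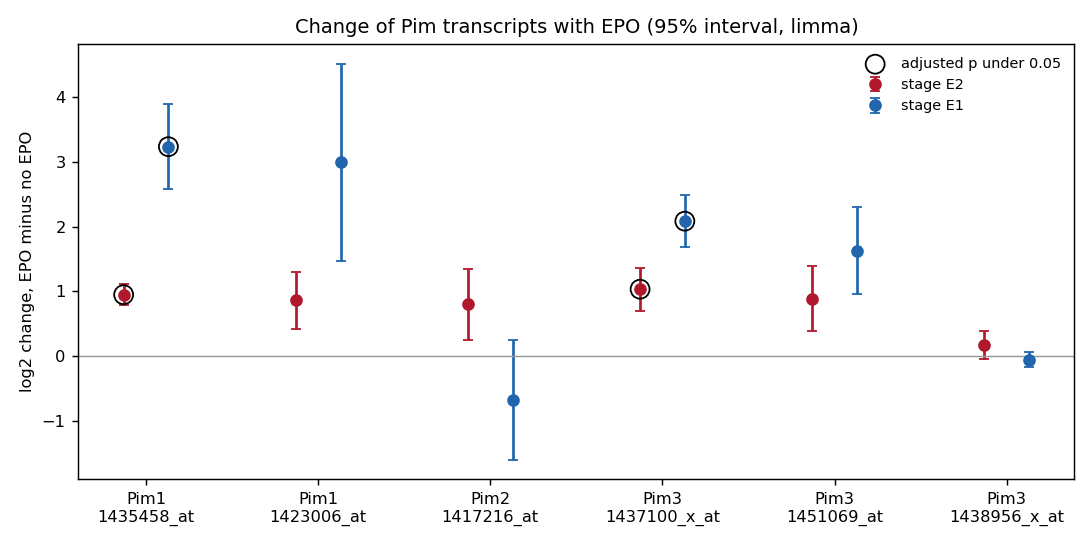
Log2 change with EPO (EPO minus no EPO, vertical axis) of the 6 Pim probe sets in stage E2 (red) and stage E1 (blue), with 95% intervals from limma; black rings mark an adjusted p under 0.05. The ringed points are 1435458_at of Pim1 (0.95 in stage E2 and 3.23 in stage E1) and 1437100_x_at of Pim3 (1.03 in stage E2 and 2.08 in stage E1).

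Whether the EPO response differed between the stages was tested as an interaction over all 14 arrays. The Pim1 response was smaller in stage E2 than in stage E1 by 1435458_at (difference of log2 changes -2.28, SE 0.34, limma adjusted p = 0.0181). That made 1 of 6 Pim probe sets called lower, where 0.235% of all probe sets were called lower and 0.18% higher. This call depended on the scaling and on single arrays. With quantile normalization the difference was -0.67 (limma adjusted p = 0.253). Without EPO-challenged stage E2 replicate 1 or unchallenged stage E2 replicate 1 the limma adjusted p was 0.0529 and 0.0530, and with stage and replicate number as a block it was 0.175. The other Pim1 probe set gave -2.13 (limma adjusted p = 0.494), and without single arrays it ran from -2.75 (unchallenged stage E1 replicate 2 left out, limma adjusted p = 0.0171) to -1.77. With quantile normalization it was -0.12 (limma adjusted p = 0.970).

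For Pim3 the difference in response did not pass the test. It was -1.05 by 1437100_x_at (95% interval -1.56 to -0.54, limma adjusted p = 0.110) and -0.74 by 1451069_at (limma adjusted p = 0.808). Both turned positive with quantile normalization, at 0.77 and 0.26. Without unchallenged stage E1 replicate 4, the highest of its group for 1437100_x_at, the difference was -1.19 (limma adjusted p = 0.0268). For Pim2 the difference was 1.47 (SE 0.51, limma adjusted p = 0.425), the only one of the 3 genes on the side of a higher response in stage E2 by the probe sets that varied.

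The stages also differed in the Pim transcripts of cells kept without EPO. Pim1 was 9.77-fold higher in unchallenged stage E2 cells than in unchallenged stage E1 cells by 1435458_at (log2 difference 3.29, SE 0.24, limma adjusted p = 2.4e-06). With quantile normalization the difference was 2.06. The mean value of unchallenged stage E2 cells, -0.17 ± 0.09 (SD, n = 3), lay beside that of EPO-challenged stage E1 cells, -0.22 ± 0.35 (SD, n = 4). The difference between these 2 groups was 0.05 by 1435458_at (limma adjusted p = 0.873). The other Pim1 probe set, 1423006_at, did not share this closeness. Its mean was -0.89 ± 0.30 (SD) in unchallenged stage E2 cells and 0.11 ± 0.21 (SD) in EPO-challenged stage E1 cells. These 2 groups did not overlap, but their difference did not pass the test (limma adjusted p = 0.247). By 1423006_at the stage difference without EPO was 1.99 (SE 0.56, limma adjusted p = 0.0254), with groups that overlapped. That call was lost when unchallenged stage E2 replicate 1 or 2 or unchallenged stage E1 replicate 1 or 3 was left out, and the difference was 0.02 with quantile normalization (limma adjusted p = 0.989). This comparison and the EPO response of stage E1 share the unchallenged stage E1 arrays, which are low for Pim1 in both.

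For Pim2 and for 2 of the 3 Pim3 probe sets, the difference between unchallenged stages did not pass the test. Pim2 gave a difference of 0.42 (limma adjusted p = 0.372), which was -0.39 with quantile normalization and ran from 0.21 (without unchallenged stage E2 replicate 2) to 0.68 (without unchallenged stage E1 replicate 4). Without unchallenged stage E1 replicate 1 or 3 it was 0.26 and 0.27. The Pim3 probe set 1437100_x_at gave -0.43 (limma adjusted p = 0.0897), and it passed the test with array weights (-0.56, limma adjusted p = 0.0161) and with quantile normalization (-1.62). The probe set 1451069_at gave 0.19 (limma adjusted p = 0.589). The little-varying 1438956_x_at was lower in stage E2, with a difference of -0.30 (SE 0.06, limma adjusted p = 0.0054). In all, 2 of 6 Pim probe sets were called higher and 1 lower in stage E2, where 10.1% and 10.8% of all probe sets were.

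Under EPO, Pim2 and Pim1 were higher and Pim3 was lower in stage E2 than in stage E1, each by 1 probe set. Pim2 was 3.72-fold higher in EPO-challenged stage E2 cells than in EPO-challenged stage E1 cells (log2 difference 1.90, SE 0.36, limma adjusted p = 0.0024). Pim1 was 2.01-fold higher by 1435458_at (log2 difference 1.0, SE 0.24, limma adjusted p = 0.0099) and differed by -0.14 by 1423006_at (limma adjusted p = 0.856). Pim3 was 2.79-fold lower by 1437100_x_at (log2 difference -1.48, SE 0.16, limma adjusted p = 5.2e-05). With quantile normalization that Pim3 difference was -0.85. By 1451069_at the difference was -0.55 (limma adjusted p = 0.167), with groups that overlapped, and it was 0.24 with quantile normalization. These were 2 of 6 called higher and 1 of 6 lower, where 10.3% and 12% of all probe sets were called. The calls for Pim1 and Pim2 and that for 1437100_x_at held without each of the 14 arrays in turn and under all 6 other alternatives tried.

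**Figure D3:**
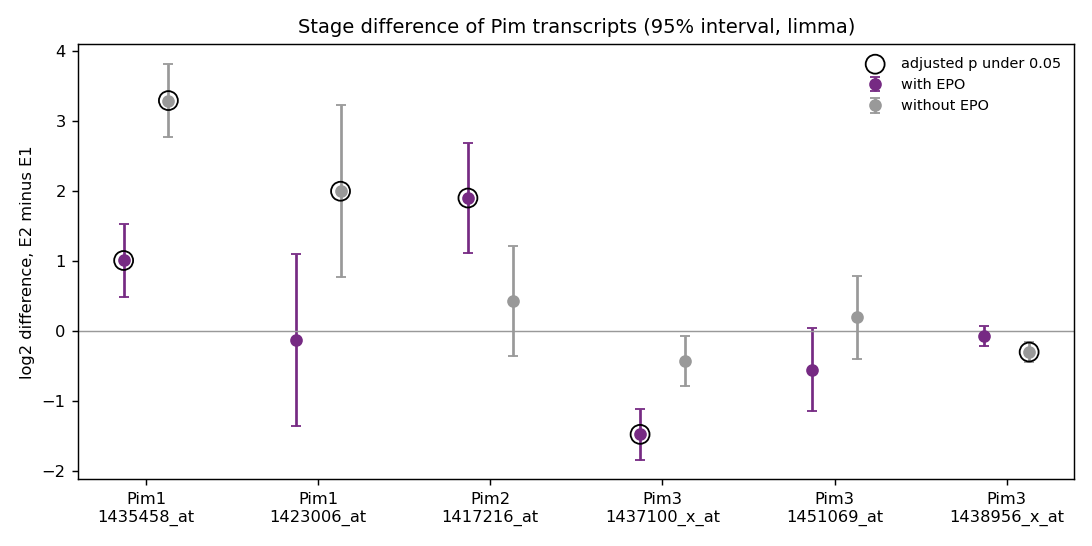
Log2 difference between the stages (E2 minus E1, vertical axis) of the 6 Pim probe sets with EPO (purple) and without EPO (grey), with 95% intervals from limma; black rings mark an adjusted p under 0.05. Pim1 1435458_at is at 1.0 with EPO and 3.29 without it, Pim2 at 1.90 and 0.42, and Pim3 1437100_x_at at -1.48 and -0.43.

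Marker transcripts of several cell types also differed between the stages, where 13.4% of all genes were called higher and 13.8% lower in unchallenged stage E2 cells. In unchallenged cells, 5 of 6 measured erythroid markers were higher in stage E2, with a mean centred value of the list between 0.19 and 0.34 on the stage E2 arrays and between -1.31 and -1.20 on the stage E1 arrays. Of 5 myeloid markers 4 were lower, with list means of -0.12 to -0.09 in stage E2 and 5.60 to 6.07 in stage E1. Among them Mpo, Elane and S100a8 differed by -9.47, -7.01 and -9.49. Of 4 progenitor markers 3 were lower, Kit among them, which the selection itself used. All 3 megakaryocyte markers were higher, 2 of 3 mast cell markers were lower, and 0 of 4 T cell markers passed the test. Of 3 B cell markers only 1 was lower, Ptprc, by a log2 difference of -3.97. The other B cell markers, Cd79a (-0.02) and Pax5 (0.04), did not pass the test. Which markers were near absence cannot be read from centred values. The part of these differences in the Pim stage differences was not tested. With EPO, 0 of the 28 measured markers passed the test in stage E1 and 1 in stage E2, Gata2, which was higher. For this response, 3.19% of all genes were called higher and 2.42% lower in stage E2, and 1.13% and 0.396% in stage E1.

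By level across the 4 groups, Pim1 1435458_at ran in the order unchallenged E1, EPO-challenged E1, unchallenged E2 and EPO-challenged E2, and the middle pair did not differ beyond its spread. Pim3 1437100_x_at ran unchallenged E2, unchallenged E1, EPO-challenged E2 and EPO-challenged E1. There the unchallenged pair was separated by 0.43 (limma adjusted p = 0.0897), and EPO-challenged E2 lay 0.60 over unchallenged E1 (limma adjusted p = 0.0200). Pim2 ran EPO-challenged E1, unchallenged E1, unchallenged E2 and EPO-challenged E2. No pair of neighbours in the Pim2 order differed at the threshold, while its 2 ends did. The Pim1 probe set 1423006_at and the Pim3 probe set 1451069_at shared 1 order, with unchallenged E1 lowest, then unchallenged E2, EPO-challenged E2 and EPO-challenged E1.

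Over the 14 arrays, which share their groups, the 2 Pim1 probe sets had a Pearson r of 0.78, and 1437100_x_at and 1451069_at of Pim3 had 0.82. The third Pim3 probe set, 1438956_x_at, had 0.38 with 1437100_x_at and 0.13 with 1451069_at. Pim2 correlated with the other probe sets at -0.44 to 0.28. These r are descriptions and carry no test.

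The responses of the 3 genes were then set against each other within each stage, with each gene taken as the mean of its probe sets. In stage E2 the mean log2 change was 0.91 for Pim1, 0.70 for Pim3 and 0.80 for Pim2. The differences of 0.21 (Pim1 minus Pim3), 0.11 (Pim1 minus Pim2) and -0.10 (Pim3 minus Pim2) had exact permutation p of 0.2, 0.7 and 0.6, where 0.1 is the smallest that 3 against 3 arrays allow. In stage E1 the mean change was 3.11 for Pim1, 1.22 for Pim3 and -0.67 for Pim2. The Pim3 mean is lowered by the little-varying 1438956_x_at (-0.05), beside 2.08 and 1.63 for its other probe sets. The Pim1 response exceeded that of Pim3 by 1.89 and that of Pim2 by 3.79, and the Pim3 response exceeded that of Pim2 by 1.89. Each had an exact two-sided permutation p of 0.0286, the smallest 4 against 4 arrays allow, and 0.0286 after adjustment over the 3 pairs. Taking only the most variable probe set of each gene, Pim1 exceeded Pim3 by 1.15 (adjusted exact permutation p = 0.0571). An exact sign-flip of the 4 same-numbered pairs cannot go below 0.125, the value it gave for each pair of genes.

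The genes whose values ran most like each Pim gene were found by Pearson r over the 14 arrays, as a description. For Pim1 1435458_at these were Inka1 (r = 0.978), Chac1 (0.975), Nupr1 (0.974), Lyl1 (0.973) and Grtp1 (0.967). Chac1, a glutathione-degrading enzyme of the stress response, changed with EPO by 0.83 in stage E2 and 3.49 in stage E1 (log2), and was 4.38 higher in unchallenged stage E2 than in unchallenged stage E1 cells. Lyl1, a basic helix-loop-helix factor of blood progenitors, changed by 0.49 in stage E2 and 1.24 in stage E1.

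For Pim3 1437100_x_at the most alike were Bag5 (r = 0.979), Trgv4 (0.977), Lnx2 (0.971), Tmem185b (0.969) and Dimt1 (0.967). Bag5, a cochaperone of the HSP70 family, changed by 0.55 in stage E2 and 0.99 in stage E1. Dimt1, an rRNA methyltransferase of ribosome synthesis, changed by 0.91 in stage E2 and 1.43 in stage E1. For Pim2 they were Foxm1 (r = 0.929), Unc45a (0.910), Epc2 (0.908), Cracd (0.901) and Mcm3 (0.897). Foxm1, a transcription factor of the G2/M phases, changed with EPO by 0.25 in stage E2 and -0.53 in stage E1, and Mcm3, a subunit of the replicative helicase, by 0.16 in stage E2 and -0.10 in stage E1. None of these 4 changes passed the test. No gene was named in more than 1 of the 3 groups.

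Upstream of the Pim genes, transcripts of the EPO receptor and its proximal signalling did not pass the test with EPO, with 0 of 8 called in each stage. Over all genes, by the probe set with the largest SD, 3.19% were called higher and 2.42% lower in stage E2, and 1.13% and 0.396% in stage E1. Jak2, the receptor's kinase, gave -0.24 in stage E2 and -0.43 in stage E1. Sh2b3, the adaptor LNK that restrains JAK2, gave 0.28 in stage E2 and 1.11 in stage E1 (limma adjusted p = 0.135).

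Other STAT5 target genes moved widely with EPO. Of 14, 10 rose and 1 fell in stage E2 and 8 rose and 1 fell in stage E1, with median log2 changes of 3.26 and 2.64. Several of them are also genes the study named from these samples, so their counts are not independent evidence. Cish, a SOCS-family feedback inhibitor, rose 16.2-fold in stage E2 and 40.7-fold in stage E1. Osm, the cytokine oncostatin M, rose by 5.39 in stage E2 and by 5.12 in stage E1 on the log2 scale. Podxl, the sialomucin podocalyxin, rose 15.3-fold in stage E2 and 31.8-fold in stage E1, and Ccnd2, the G1 cyclin D2, rose 9.85-fold in stage E2 and 10.8-fold in stage E1. Bcl6, a transcriptional repressor chosen after its values were seen, fell by 0.85 in stage E2 and by 1.08 in stage E1 on the log2 scale. In the interaction 1 of the 14 was called higher in stage E2 and 1 lower, where 0.198% and 0.291% of all genes were. The lower one was Cish (difference of log2 changes -1.33, limma adjusted p = 0.0152), on the same side as Pim1. The higher one was Socs3, a feedback inhibitor chosen after its values were seen (2.91, limma adjusted p = 0.00067).

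Among regulators of Pim protein lifetime, which include the chaperones that hold Pim1 and the phosphatase PP2A that marks it for breakdown, 1 of 7 rose in stage E2 and 0 of 7 passed in stage E1. The one that rose was Hspa8, the constitutive HSC70, whose values were 0.99, 1.11 and 1.34 in stage E2 with EPO, against -0.48, -0.83 and -0.88 without it. Its log2 change was 1.87 in stage E2 (SE 0.15, limma adjusted p = 0.0077) and 1.57 in stage E1 (limma adjusted p = 0.0667). Stub1, the ubiquitin ligase CHIP, gave -0.15 in stage E2 and 0.25 in stage E1. Over all genes, 3.19% were called higher and 2.42% lower in stage E2, and 1.13% and 0.396% in stage E1.

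Transcripts of Pim substrates were described by role. The shares called over all genes were 3.19% higher and 2.42% lower in stage E2, and 1.13% and 0.396% in stage E1. Of 6 survival substrates, 2 fell in stage E2 and 0 were called in stage E1. Foxo3, a forkhead factor that drives death genes when active, fell by 0.56 in stage E2 (limma adjusted p = 0.0028) and gave -0.47 in stage E1. Akt1s1, the mTORC1 inhibitor PRAS40 and chosen after its values were seen, fell by 0.64 in stage E2 and gave 0.14 in stage E1. Of 7 cell cycle substrates, 2 rose and 1 fell in stage E2, and 1 fell in stage E1. That one was Cdkn1b, the inhibitor p27, whose values were -0.15, -0.03 and 0.03 in stage E2 with EPO, against 1.76, 1.20 and 0.98 without it. In stage E1 they were -2.45, -1.77, -2.13 and -2.24 with EPO, against -0.32, -0.32, -0.42 and -0.18 without it. Cdkn1b fell by 1.37 in stage E2 (limma adjusted p = 0.0427) and by 1.84 in stage E1 (limma adjusted p = 0.0036). The 2 that rose in stage E2 were Cdc25a, the phosphatase that opens CDK activity (log2 change 1.44), and Cdkn1a, the inhibitor p21 (0.95). They gave 0.80 and 1.23 in stage E1, not past the test.

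Of 8 transcription substrates only Myc, which Pim kinases phosphorylate, passed the test, and it rose in both stages. Myc is also a member of the STAT5 target list, so the same rise is counted in both lists. Myc gave 2.61, 2.49 and 2.38 in stage E2 with EPO, against -0.86, -0.83 and -0.87 without it. In stage E1 it gave 2.60, 1.97, 2.80 and 3.27 with EPO, against -0.06, 0.17, 0.06 and 0.12 without it. The rise was 3.35 on the log2 scale in stage E2 and 2.59 in stage E1, so its order between the stages was the reverse of that of Pim1, and its interaction did not pass the test. Of 5 translation and mTOR targets shared with Pim, 0 were called in either stage. Over all genes, 3.19% were called higher and 2.42% lower in stage E2, and 1.13% and 0.396% in stage E1. Of 8 measured AKT, SGK and mTOR kinases, relatives in substrate choice or partners in the same route, 1 fell in stage E2 and 0 were called in stage E1. This was Sgk1, chosen after its values were seen, which fell by 1.18 in stage E2 (limma adjusted p = 0.0028) and gave -0.34 in stage E1. Mtor gave -0.09 in stage E2 and -0.13 in stage E1.

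**Figure D4:**
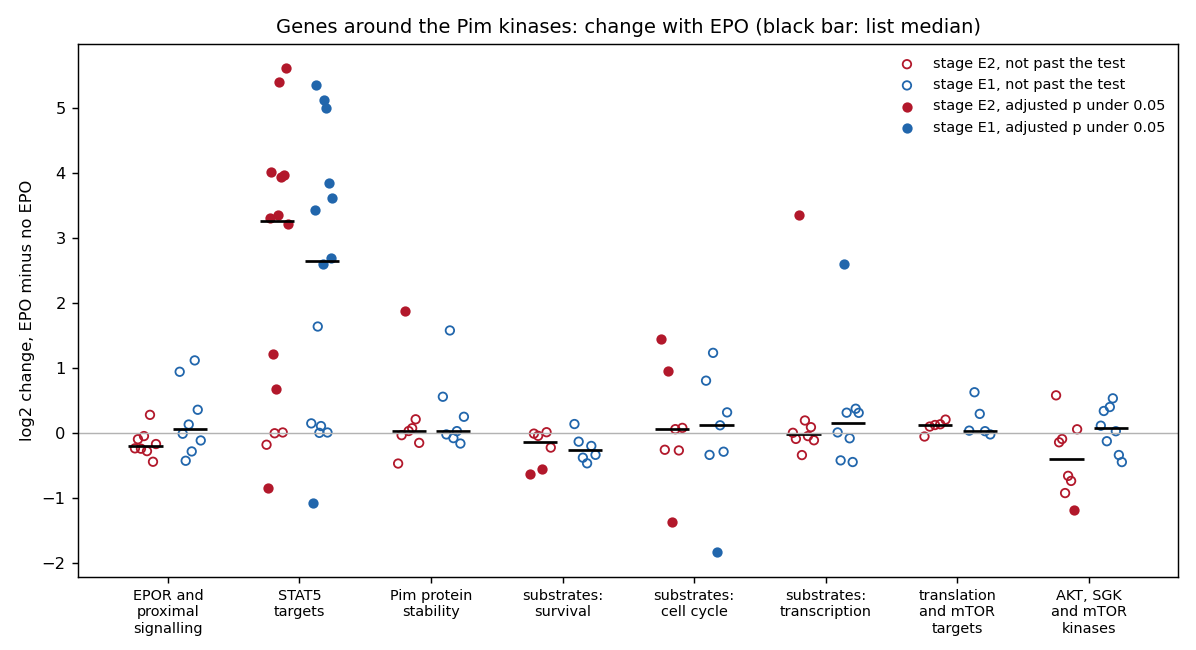
Log2 change with EPO (EPO minus no EPO, vertical axis) of the genes around the Pim kinases, by list, in stage E2 (red) and stage E1 (blue); filled points passed limma's test at an adjusted p under 0.05 and black bars are list medians. The STAT5 targets have medians of 3.26 in stage E2 and 2.64 in stage E1, and every other list has a median between -0.40 and 0.16.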

How the data were processed

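RNA of 14 samples was hybridised to Affymetrix mouse arrays. The authors processed scans with GCOS and GeneSpring GX and deposited log2 GC-RMA values, centred by subtracting a constant of each probe set. The base of 2 is inferred. The constant appears to be a median, since in 35163 of 45101 probe sets (78%) the values nearest 0 mirrored each other within 2e-06. It need not be the median of these 14 arrays, which would leave equal numbers of values above and below 0. For Cish, the values below 0 were those of all unchallenged arrays and of EPO-challenged stage E1 replicates 2, 3 and 4. No level or background can be read, so a filter on the SD over arrays stands for one on dim probes. The number of arrays limits the precision.

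The analysis used limma 3.58.1 (R 4.3.3), two-sided, with Benjamini-Hochberg adjustment over 45037 probe sets (64 controls left out) and a threshold of 0.05. EPO responses were fitted within each stage, stage contrasts and the interaction on all 14 arrays. The fit on 14 arrays takes 1 shared spread for each probe set. The median SD within groups was 0.03 in stage E2 and 0.07 to 0.09 in stage E1, so this holds only roughly. P-values measure the spread between these samples. The reported fits took no pairs. In stage E1, deviations from the group means correlated between arrays that carry 1 replicate number (r = 0.195, 0.187, 0.173 and 0.152), so a block on these numbers was tried as an alternative. Replicates 3 and 4, however, correlated best across numbers (0.203). Neither the labels nor the methods state a shared batch. The calculations were tested on simulated data.

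Members and gene lists were chosen with earlier results of these data known. Named genes are all Pim probe sets, the 5 genes most alike in profile to each Pim gene, and up to 4 members per list with the smallest p in stage E1, each by its probe set with the largest SD. Alternatives were 2 scalings, a filter, other limma options, array weights, the replicate block, a joint fit, the methods' t-test, exact tests and each array left out.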

Additional observations from a re-analysis of the deposited data

Results flagged for a closer look

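The EPO response of Pim1 by 1435458_at differed between the stages in the interaction test, with a log2 change of 0.95 in stage E2, 3.23 in stage E1 and a difference of -2.28 (limma adjusted p = 0.0181). The 3 EPO-challenged stage E2 arrays were higher than the 3 unchallenged ones, and the 4 EPO-challenged stage E1 arrays were higher than the 4 unchallenged ones. The stages thus had the same direction. The difference in size did not pass the test with quantile normalization (-0.67, limma adjusted p = 0.253), with the replicate block or without some single arrays. Dixon's test singled out no array of stage E1 for any Pim probe set, but with 4 arrays it can single out only very far values. Groups of 3 were not tested. Unchallenged stage E1 replicate 2 was the lowest of its group by 1435458_at (-4.15) and the highest by 1423006_at (-1.01).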

How the results depend on the processing

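Counts of called Pim probe sets moved with the test. Higher with EPO in stage E2 were 2 as reported, 4 with tests limited to the 22518 probe sets with the larger SD, 0 with the replicate block, 1 in the fit on all 14 arrays, 5 by the methods' t-test unadjusted, 0 by exact tests (which cannot pass there) and 1 to 2 without single arrays. In stage E1 they were 2 as reported, 4 with the SD filter, array weights, the fit on 14 arrays, the methods' t-test unadjusted or exact tests, 0 with the replicate block and 2 to 3 without single arrays. The interaction's 1 lower call became 0 with quantile normalization or the replicate block, and 0 to 2 without single arrays. For unchallenged stages, 2 higher calls became 1 with quantile normalization (1 to 2 without single arrays), and 1 lower call became 2 with quantile normalization or array weights. Over all probe sets, stage E2 had 2081 calls, against 3574 with the SD filter, 417 with the block, 999 in the fit on 14 arrays, 9739 by the unadjusted t-test and 834 to 1298 without single arrays. Stage E1 had 524, against 839, 61, 1695 and 5194 in the same order, 1890 with array weights and 205 to 501 without single arrays. The interaction had 187, against 1718 with quantile normalization, 118 with trend and robust options, 869 with array weights, 44 with the block and 112 to 331 without single arrays, and the stages under EPO had 10047, against 18996 with array weights. Quantile normalization reversed the interaction of Pim3 1437100_x_at (0.77) and 1451069_at (0.26), the unchallenged stage difference of Pim2 (-0.39) and Pim3 1451069_at (-0.024) and the stage difference of Pim3 1451069_at under EPO (0.24), and kept the order of groups in 3 of 6 probe sets.

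Between Pim genes, the most variable probe set reversed Pim1 minus Pim3 (-0.085) and Pim3 minus Pim2 (0.234) in stage E2 and took Pim1 minus Pim3 in stage E1 to 1.15, no longer past the threshold. The exact sign-flip of pairs left 1.89, 3.79 and 1.89 at p = 0.125, its smallest. Without single arrays the stage E2 differences ran from -0.090 to 0.352 (Pim1 minus Pim2) and -0.270 to 0.034 (Pim3 minus Pim2), and Pim3 minus Pim2 in stage E1 from 1.68 to 2.17, with adjusted p = 0.0571 (exact permutation) without unchallenged replicate 2 or 4. The causes were not tested. Stage E2 arrays of the same number did not deviate together (r -0.061, -0.057 and -0.016); blocking on their numbers gave a limma adjusted p of 0.0731 for Pim1 1435458_at and 0.0714 for Pim3 1437100_x_at.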
